A study of Mus musculus with 69 samples.

Results

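The genes described here are the acyl-CoA and beta-oxidation enzymes of the mouse kidney, taken by symbol as the families Acad, Acot, Acox, Acsl, Acsm, Acss, Acaa, Hadh, Ech, Eci, Cpt, Decr and Ehhadh. Of 24523 gene symbols with counts, 62 matched, and 61 of these had at least 100 counts in total over the original libraries. Acot10, a mitochondrial thioesterase, lay on that limit with 100 counts, and Acsm4, with 19 counts, was the symbol left out. The symbols also bring in Acss2os, an antisense RNA, the Echdc proteins, and dehydrogenases such as Acad8 and Acadsb that act on branched amino acid chains. Whole kidney RNA of NZB/W F1 mice, hybrids prone to an autoimmune nephritis like that of lupus, came from 30 young mice of 12 weeks, 27 nephritic mice of 30 to 45 weeks and 8 mice in remission. Young mice were untreated, and so were nephritic mice, which were collected soon after proteinuria began and before renal failure. Remission mice, 36 to 50 weeks old at treatment, had been given CTLA4Ig, anti-CD40L and cyclophosphamide at the onset of proteinuria and were collected 8 weeks later. Diagnosis and age cannot be told apart in any comparison with young mice. In the comparison with nephritic mice, remission cannot be told apart from the treatment and the older age range of the remission mice.

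Fatty acids are the main fuel of the proximal tubule, the segment that reabsorbs most of the filtrate. An acyl-CoA synthetase first activates the fatty acid, the carnitine palmitoyltransferases Cpt1 and Cpt2 carry long chains into mitochondria, and a repeating cycle of dehydrogenase, hydratase, second dehydrogenase and thiolase then shortens the chain. Peroxisomes run a cycle of their own that starts with an oxidase (Acox) and handles very long, branched and dicarboxylic chains, while thioesterases (Acot) split acyl-CoA back into free acid and CoA.

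Zeitgeber time (ZT) counts hours from lights on. At ZT0, 4, 8, 12, 16 and 20 there were 7, 4, 4, 7, 4 and 4 young and 7, 4, 4, 6, 3 and 3 nephritic mice, while remission was sampled in 4 mice at ZT0 and 4 at ZT12. Each original library is a separate mouse. Total counts ranged from 25257530 to 35744843 in young, 26596500 to 48075977 in nephritic and 13311278 to 21849912 in remission mice, and the 61 genes took 1.29 to 1.61%, 0.490 to 1.47% and 1.06 to 1.41% of them. The clock genes of 2 libraries went against their time labels. Remission mouse s9, labelled ZT12, had 8.00 CPM of Dbp (reads scaled to library size) against 74.9 to 124 in the other ZT12 remission mice, and nephritic mouse RX10RU, labelled ZT8, had 10.3 CPM of Dbp against 110 to 140 in the other 3, so counts and time courses that rest on them are given with and without them. Markers of other tissue moved too. The 7 adrenal markers summed to 74.2 to 2345 CPM in 8 young mice and 1 nephritic mouse (RX10LU) and to at most 15.1 CPM in all others.

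The 10 proximal tubule markers (among them Slc34a1, Lrp2 and Cubn) were detected in every mouse. Over all times, their summed level had a median of 14145 CPM in young mice (10781 to 17459) and 8698 CPM in nephritic mice (1870 to 13577). Nephritic mice had less than young mice of all 10. In remission mice, sampled at ZT0 and ZT12 only, the median was 8597 CPM (7869 to 11904). The 13 nephritic mice of these times had a median of 7845 CPM. All 9 immune markers were higher in nephritic mice, with a summed median of 660 CPM (175 to 3924) against 80.9 CPM (47.3 to 120) in young mice. In remission mice their sum was 227 to 1573 CPM. At ZT0 and ZT12 all 9 were higher in remission than in young mice, and 0 of 9 passed the test between remission and nephritic mice. The part of immune cells in the results was not tested. In whole tissue, fewer proximal tubule cells and less RNA per cell cannot be told apart.

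In young kidney, levels per kilobase of the longest coding transcript covered a wide range. Acadm, the medium-chain acyl-CoA dehydrogenase that opens the mitochondrial cycle, was highest with a median of 649 CPM per kb. It was followed by Acaa1b, a peroxisomal thiolase, with 489 CPM per kb, Ech1, a dienoyl-CoA isomerase of both organelles, with 334, the mitochondrial hydroxyacyl-CoA dehydrogenase Hadh with 308 and Acsm2, a medium-chain synthetase, with 274. Cpt1a, the rate-setting entry enzyme of the mitochondrial route, ranked 22 of 61 with 91.9 CPM per kb. The lowest were Acot10 with 0.0255, Acsl6 with 0.0495 and Acoxl with 0.0601 CPM per kb.

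Most of these enzymes were lower in nephritic than in young kidney. Averaged over the day, 49 of 60 genes tested were lower and 5 were higher at an adjusted p of at most 0.05 (edgeR quasi-likelihood test with time point and sequencing set as covariates), and the remaining 6 (Acsm3, Acsl4, Eci1, Cpt1b, Acot1 and Acot2) did not pass. Of all 17521 genes tested, 33.9% were lower and 28.1% were higher. The 60 enzymes had a median log2 change of -0.47, beside -0.03 over all genes tested. Groups overlapped for every member: for 23 members more than 13 of the 27 nephritic mice lay below the lowest young mouse, the most was 24 of 27 (Acsm5, Acsm1, Acss2 and Acad8), and for no member did all 27. Acot10, with fewer than 100 counts in this comparison, was not tested. Libraries came in 2 sequencing sets, Set 1 with mice of ZT0 and ZT12 only. The count of lower genes was 47 among the mice of Set 2 alone and 49 without mouse RX10RU.

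**Figure D1:**
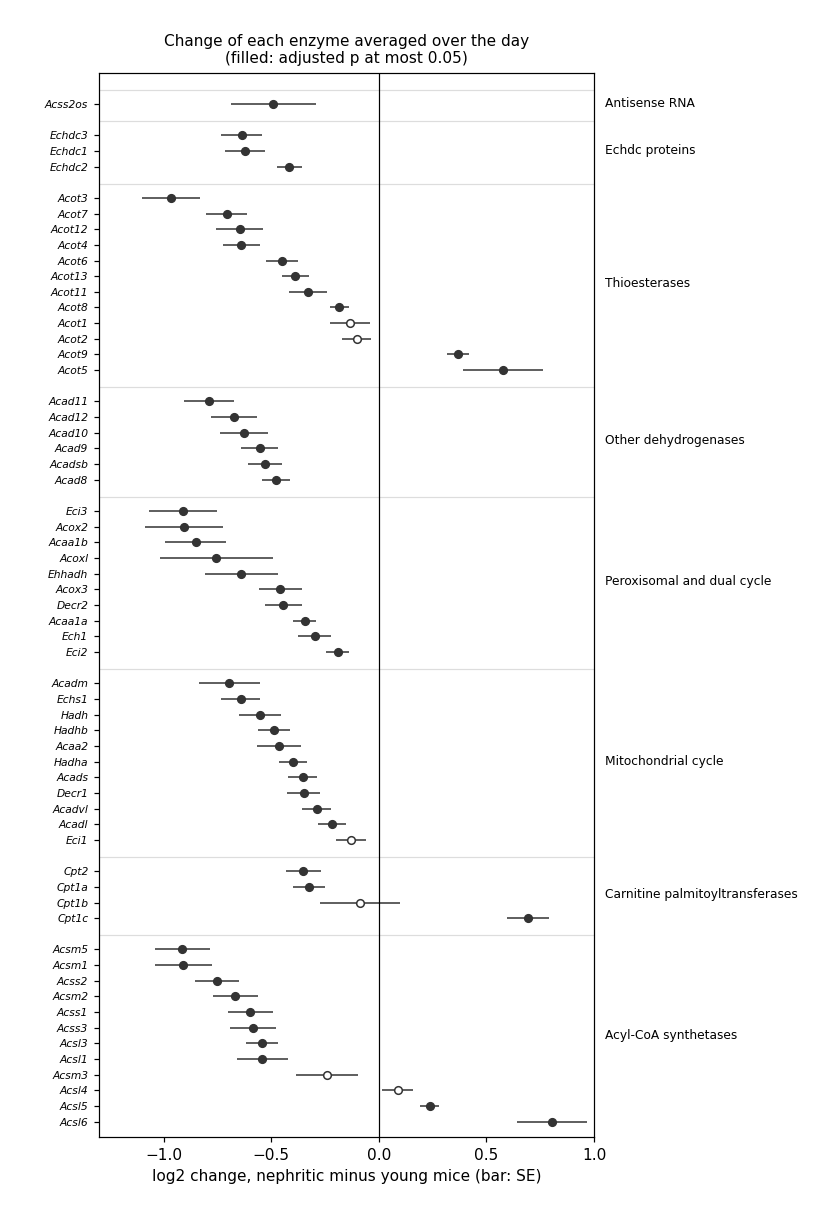
Each point is the log2 change of a gene between nephritic (n = 27) and young (n = 30) mice averaged over the day, with its SE as the bar, by role, and filled points passed the test. Nearly all points lie left of 0, and the 5 genes that rose, Acsl6, Cpt1c, Acot5, Acot9 and Acsl5, stand apart on the right.

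Cpt1a (chr19:3322326-3385735, GRCm38) had 256 to 625 CPM in young mice (median 397) and 142 to 425 CPM in nephritic mice (median 323). The ranges overlapped broadly, with 3 of 27 nephritic mice below the lowest young mouse, and the fall was 0.32 on the log2 scale (SE 0.075, adjusted p = 0.000204). Cpt2, which hands the chain back to CoA inside the mitochondrion, fell from a median of 164 CPM (124 to 222) to 140 CPM (51.7 to 186), with a log2 change of -0.35 (SE 0.082, adjusted p = 0.000221). The other palmitoyltransferases are minor in this tissue. Cpt1c, a brain form, rose from 3.71 CPM (2.61 to 5.14) to 5.91 CPM (3.55 to 10.7), with 16 nephritic mice above every young mouse (log2 change 0.69, SE 0.097, adjusted p = 2.33e-08). Cpt1b, the muscle form, was near 1 CPM in both groups (log2 change -0.09, adjusted p = 0.696).

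Of the 11 core enzymes of the mitochondrial cycle, 10 were lower. Acadm had 905 to 2143 CPM in young mice (median 1328) and 232 to 1280 CPM in nephritic mice (median 950), with 13 nephritic mice below every young mouse and a log2 change of -0.69 (SE 0.14, adjusted p = 4.1e-05). Echs1, the short-chain enoyl-CoA hydratase, spread little among young mice (293 to 380 CPM, median 339) and fell to a median of 231 CPM (84.2 to 320), with 22 nephritic mice below the young range (log2 change -0.64, SE 0.089, adjusted p = 2.08e-08). Acadvl, the very-long-chain dehydrogenase, went from 472 CPM (385 to 535) to 411 CPM (190 to 538), a log2 change of -0.29, and Acadl, the long-chain dehydrogenase, from 324 CPM (254 to 385) to 291 CPM (156 to 346), a log2 change of -0.22 (adjusted p = 0.00287, and 0.212 in Set 2 alone). Acads, the short-chain dehydrogenase, fell by 0.35, Hadha and Hadhb, the subunits of the trifunctional protein, by 0.40 and 0.49, Hadh by 0.55, the thiolase Acaa2 by 0.46 and the dienoyl-CoA reductase Decr1 by 0.35 on the log2 scale. Eci1, the enoyl-CoA isomerase, did not pass (log2 change -0.13, adjusted p = 0.1). The other dehydrogenases of the family, Acad8, Acad9, Acad10, Acad11, Acad12 and Acadsb, were lower in 6 of 6 cases, with a median log2 change of -0.59.

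All 11 genes grouped with the peroxisomal cycle were lower. They include Ech1 and Eci2, which also act in mitochondria, and Acoxl, an oxidase-like gene left out where only cycle genes are counted. Acaa1b (chr9:119148043-119157093) had 295 to 1060 CPM in young mice (median 825) and 79.0 to 687 CPM in nephritic mice (median 386), so that the nephritic median lay close to the low end of the young range (log2 change -0.85, SE 0.14, adjusted p = 7.15e-07). Its neighbour in sequence, Acaa1a, changed less (log2 change -0.34), and 13.3% of the 150-base windows of Acaa1b transcripts also occur in Acaa1a, so reads could be shared between them. Acox2, an oxidase that takes branched chains and bile acid precursors, went from 119 CPM (91.3 to 196) to 81.6 CPM (11 to 147), a log2 change of -0.91 (SE 0.18, adjusted p = 2.85e-05). Acox3 fell by 0.46. Ehhadh, the bifunctional hydratase and dehydrogenase, went from 664 CPM (476 to 1414) to 513 CPM (76.6 to 805), a log2 change of -0.64 (SE 0.17, adjusted p = 0.00102). Eci3, a peroxisomal isomerase, spanned only 94.0 to 143 CPM in young mice and 10.7 to 118 CPM in nephritic mice, 20 of which lay below the young range (log2 change -0.91, SE 0.16). Decr2, the peroxisomal reductase, fell by 0.44, Ech1 by 0.30 and Eci2 by 0.19 on the log2 scale.

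Of 12 genes that activate fatty acids, 8 were lower and 2 higher. Acsm5, a medium-chain synthetase, fell from 140 CPM (111 to 205) to 83.0 CPM (22.4 to 152), with 24 nephritic mice below every young mouse (log2 change -0.91, SE 0.13, adjusted p = 2.72e-08), and its relative Acsm1 fell by 0.91 as well. Acss2, which makes acetyl-CoA in the cytosol, fell by 0.75, and Acsl1, the main long-chain synthetase, fell by 0.54, from 530 CPM (322 to 768) to 382 CPM (103 to 744). The genes that rose were also long-chain synthetases. Acsl5 went from 109 CPM (83.3 to 129) to 125 CPM (99.8 to 189), a rise of 0.24 on the log2 scale (SE 0.044, adjusted p = 7.35e-06), and Acsl6 rose by 0.81 at levels of at most 0.8288 CPM in nephritic mice.

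Of 12 thioesterases tested, 8 were lower and 2 were higher. Acot3, a peroxisomal form, had the largest fall of any member, from 95.0 CPM (59.6 to 162) to 55.7 CPM (10.1 to 87.5), a log2 change of -0.97 (SE 0.13, adjusted p = 1.93e-08). Acot7, a cytosolic form, went from 106 CPM (71.5 to 161) to 68.4 CPM (29.4 to 111), a log2 change of -0.71. Acot9, a mitochondrial form, rose from 40.3 CPM (30.4 to 52.7) to 51.4 CPM (36.9 to 82.3), with 13 nephritic mice above every young mouse (log2 change 0.37, SE 0.052, adjusted p = 3.45e-08), and Acot5 rose by 0.58 at levels of at most 0.561 CPM. Acot8, which ends peroxisomal oxidation, fell by 0.18. Acot1 and Acot2, which did not pass, share 9.68% and 10.2% of their windows with each other, so reads could be shared between them. All 3 Echdc genes were lower (Echdc3 by 0.64), and so was Acad11 (by 0.79). Acss2os, at 0.465 CPM in young mice, fell by 0.49, a call lost in 9 of 57 fits with a mouse left out and in 3 of 9 other settings, among them Set 2 alone (adjusted p = 0.366). Since it overlaps Acss2 on the other strand and the counting is not stated to use strand, reads of the pair cannot be told apart. Acoxl, at no more than 0.627 CPM, fell by 0.75 (adjusted p = 0.0114).

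Of 38 genes that work with these enzymes, 36 were lower (33.9% of all genes tested) and 0 higher (28.1% of all genes). Their median log2 change was -0.42, beside -0.77 for the 10 proximal tubule markers. In the same test, Slc22a5, the carnitine importer, fell by 0.56, Slc27a2, a very-long-chain transporter and synthetase, by 0.71, Etfdh, which passes the electrons of the mitochondrial dehydrogenases on, by 0.39, and Nudt19, a peroxisomal CoA hydrolase, by 0.84. All 8 genes of other peroxisomal steps, all 5 peroxisome assembly genes (Pex5 by 0.37) and all 7 regulators were lower. Among the regulators Ppara, the nuclear receptor that drives fatty acid oxidation genes, fell by 0.77 (SE 0.13), Hnf4a by 0.53 and Ppargc1a by 0.40. Acaca, which makes the malonyl-CoA that inhibits Cpt1, fell by 0.75.

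Genes of both organelles were mostly lower, and the difference between the organelles was not tested. Of 30 mitochondrial genes tested 25 were lower and 1 higher (median log2 change -0.47), and of 13 peroxisomal genes 12 were lower and 1 higher (median -0.46). Restricted to the oxidation cycle, 12 of 14 mitochondrial genes (median -0.35) and 8 of 8 peroxisomal genes (median -0.55) were lower, so which organelle had the larger median depended on the genes included. The summed mitochondrial level was 3375 to 4148 CPM per kb in young mice (median 3732) and 1129 to 3631 in nephritic mice (median 2899), and 24 of 27 nephritic mice lay below the lowest young mouse. The summed peroxisomal level was 983 to 1656 CPM per kb in young mice (median 1379) and 285 to 1321 in nephritic mice (median 888), with 18 of 27 below.

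**Figure D2:**
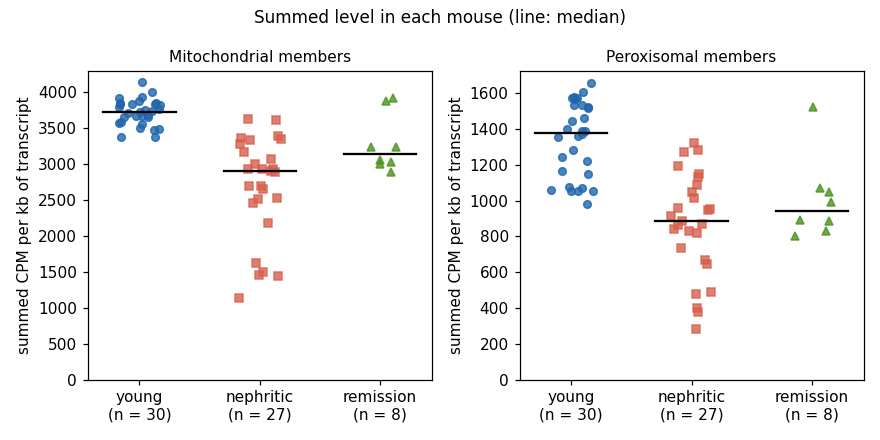
Each point is the summed level of the mitochondrial (left) or peroxisomal (right) genes of a mouse in CPM per kb of transcript, by group, with the median as a line. Nephritic mice spread far wider than young mice, and 5 of them lie under 1700 on the left.

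The nephritic mice were unequal. The same 5 (CRS60, RX10LU and RX12RU at ZT0, HIL5RU and HIL5LL at ZT12) had the lowest mitochondrial sums (1129 to 1621 CPM per kb, next 2180), the lowest peroxisomal sums (285 to 490, next 645) and the lowest proximal tubule marker sums (1870 to 3986 CPM, next 5715). With the log2 summed proximal tubule markers as a further covariate, a fit chosen after seeing the data, 10 genes stayed lower (11.9% of all genes tested were lower) and 2 stayed higher (11.5% of all genes). The 10 were Acsl3, Acsm5, Acss2, Echs1, Acad8, Acaa1a, Acot3, Acot4, Acot7 and Echdc2, and the 2 were Acsl6 and Acot9. The median log2 change of the 60 genes in that fit was -0.05, beside -0.04 over all genes, and 36 of 60 lay below 0.

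At single time points the differences were uneven. At ZT12, 49 of 60 genes were lower (24.2% of all genes tested) and 3 higher (25.8% of all genes), with a median log2 change of -0.76. At ZT0, 32 were lower (19.4% of all genes) and 6 higher (20.1% of all genes), with a median of -0.47. Of the 5 nephritic mice with the lowest sums, all were collected at these times. CRS60, HIL5RU and HIL5LL were from Set 1, which held mice of ZT0 and ZT12 only, and RX10LU and RX12RU were from Set 2. HIL5RU and HIL5LL were all the nephritic mice of Set 1 at ZT12. The other times held 3 or 4 nephritic mice each. Lower genes numbered 12 at ZT4 (16.4% of all genes), 1 at ZT8, which was Decr2 (0.833% of all genes), 4 at ZT16 (7.66% of all genes) and 0 at ZT20 (0.919% of all genes). Higher genes at these times were Cpt1c and Acot9 at ZT4 (13.9% of all genes), 0 at ZT8 (2.83% of all genes), Acsl5 at ZT16 (10.1% of all genes) and Acot5 and Acsl6 at ZT20 (4.56% of all genes). At ZT20, edgeR gave 6 lower genes at an unadjusted p under 0.05, and RLE size factors and limma gave 0 lower genes past the threshold. The median log2 changes at ZT4, 8, 16 and 20 were -0.43, -0.25, -0.41 and -0.25, and 49 to 56 of the 60 genes lay below 0 at each of the 6 times. Within Set 2 alone the counts of lower genes were 26, 19, 5, 20, 19 and 0 from ZT0 to ZT20. The shares of all genes called lower in that fit were not computed, so these counts cannot be set against them. Set 1, with 3 young and 3 nephritic mice at ZT0 and 3 and 2 at ZT12, was not fitted alone. Without mouse RX10RU, in both sets, the counts of lower genes were 30, 10, 0, 49, 3 and 0. The count at ZT4 was 4 to 7 when any of RX11LU, RX12LU, RX11RL, RX1OLL, ZT4RU, ZT4LU or ZT40 was left out, the count at ZT16 moved by over 1.5 times in 29 of 57 such fits (0 to 8), and the count at ZT8 was 0 in 35 of them.

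In young kidney the enzymes varied over the day. A difference among the 6 time points was called for 35 of 60 genes (58.3%), where it was called for 39.8% of all 16521 genes tested. Of 13 peroxisomal genes 10 passed, against 15 of 30 mitochondrial genes. For the genes that passed, the highest mean fell at ZT8 in 10, at ZT12 in 8, at ZT20 in 8, at ZT4 in 4, at ZT16 in 4 and at ZT0 in 1. Of all genes that passed, it fell at ZT8 in 19.1%, at ZT12 in 13.2%, at ZT20 in 19.2%, at ZT4 in 20.02%, at ZT16 in 17.2% and at ZT0 in 11.3%. Without the mice with adrenal markers 31 genes passed, and in Set 2 alone 25.

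Cpt1a in young mice was 480, 490, 496 and 520 CPM at ZT8 and 292, 302, 305 and 401 CPM at ZT20, so that all ZT8 mice lay above all ZT20 mice. Its 24 h cosine amplitude was 0.31 on the log2 scale (SE 0.050) with a peak at 9.14 h (time test adjusted p = 0.000414). In nephritic mice Cpt1a was 354, 361, 379 and 425 CPM at ZT8 and 284, 301 and 409 CPM at ZT20, which overlap, and the amplitude was 0.15 (SE 0.083). The lowest ZT8 value is mouse RX10RU, without which the amplitude was also 0.15. The test of a different time course did not pass for Cpt1a (adjusted p = 0.234, and 0.214 without RX10RU). The 5 genes with the largest amplitude among those past the young test were Acaa1b (0.45), Acss2os (0.41), Acsl1 (0.38), Ehhadh (0.37) and Decr2 (0.34), with 0.13, 0.09, 0.33, 0.16 and 0.08 in nephritic mice in the same order, and 0.13, 0.13, 0.38, 0.19 and 0.08 without mouse RX10RU. Choosing genes by their young amplitude favours larger values in young mice. None of these 5 was called in the test of a different time course. The young call of Acss2os was lost in 6 of 30 fits with a mouse left out and in 2 of 9 other settings (adjusted p up to 0.15). Acaa1b rose in young mice from 295 to 631 CPM at ZT0 (median 482) to 824, 888, 967 and 1060 CPM at ZT8, with no overlap. Decr2 rose from 48.2 to 70.8 CPM at ZT0 to 89.6, 90.3, 95.6 and 102 CPM at ZT8, again with no overlap. Acsl1 ran the other way, from 560 to 732 CPM at ZT0 down to 322, 328, 356 and 412 CPM at ZT8.

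**Figure D3:**
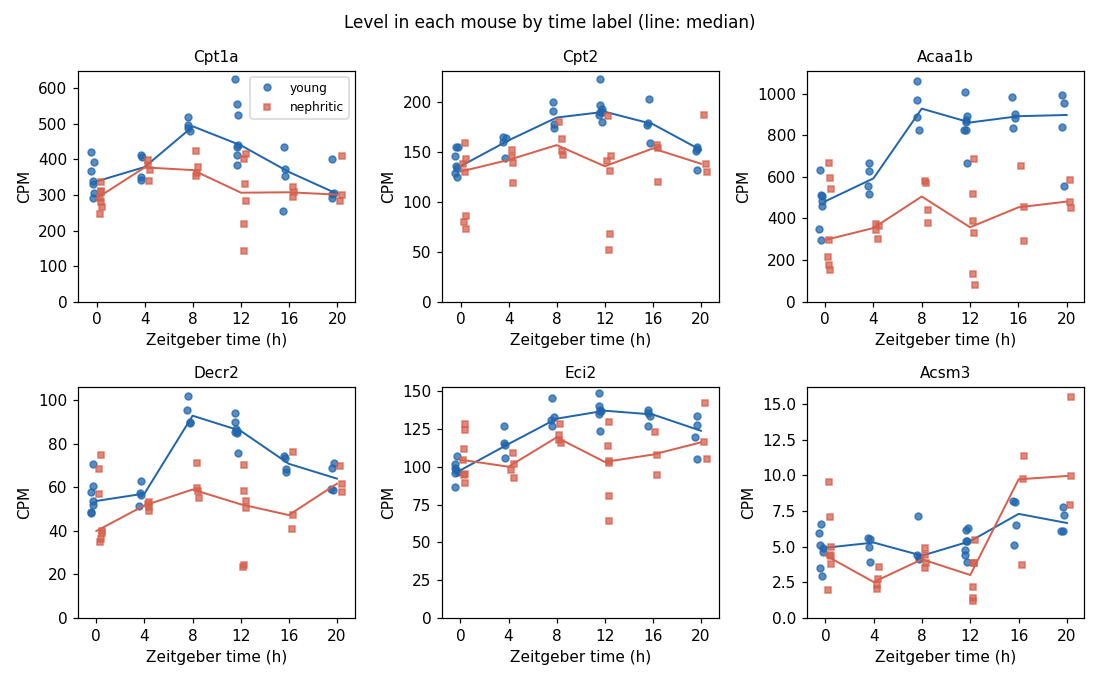
Each point is the level of a gene in a mouse in CPM against Zeitgeber time in hours, young mice as circles and nephritic mice as squares, with lines through the medians. Cpt1a, Cpt2, Acaa1b, Decr2 and Eci2 rise to ZT8 or ZT12 in young mice, and the nephritic medians of these genes at ZT12 lie below the young medians.

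In nephritic kidney 2 of 60 genes passed the test over time points, Acsm3 (adjusted p = 0.00825) and Acaa1a (adjusted p = 0.0470), where 21.6% of all 16872 genes tested did. Without mouse RX10RU the count was 3. A different time course in the 2 groups was called for 2 genes, Eci2 (adjusted p = 0.0392) and Acsm3 (adjusted p = 0.0486), where 6.27% of all genes tested were called, and 7 of the 60 had an unadjusted p under 0.05. Without mouse RX10RU the genes called were Eci2, Acsm3 and Acaa1a (adjusted p = 0.0464). Eci2 in young mice rose from 86.7 to 107 CPM at ZT0 (median 97.7) to 123 to 149 CPM at ZT12 (median 137), with no overlap, while in nephritic mice it was 89.0 to 128 CPM at ZT0 (median 105) and 64.2 to 130 CPM at ZT12 (median 103). Acsm3, a medium-chain synthetase at low level, was 2.06, 2.28, 2.76 and 3.58 CPM at ZT4 and 7.95, 9.96 and 15.5 CPM at ZT20 in nephritic mice, and 3.90 to 5.64 CPM and 6.08 to 7.81 CPM at these times in young mice. The 7 adipocyte markers moved along with it. In nephritic mice their sum was 19.1 to 63.6 CPM at ZT4 and 292 to 301 CPM at ZT20. Averaged over the day, 0 of the 7 passed the test between the groups. By time point, the nephritic level was reduced for 2 of the 7 at ZT4 and 5 at ZT12, and raised for 1 at ZT0. At ZT8, ZT16 and ZT20, 0 passed. With these markers as a covariate, 0 of the 60 genes passed over time points in nephritic mice. Neither call was stable: leaving out each mouse in turn kept Eci2 in 44 of 57 fits and Acsm3 in 13 of 57, and moved the count of 2 over time points in nephritic mice to 1 or 3 (17 of 27 fits by over 1.5 times). Of the 35 genes that varied in young mice, 25 had the larger amplitude in young mice, where 78.2% of all such genes did, and the median amplitude over the 60 genes was 0.14 in both groups. Without mouse RX10RU the count was also 25, and the nephritic median was 0.15.

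The peroxisomal part of the combined level changed over the day in young mice. Peroxisomal genes made up 21.9 to 24.5% of the peroxisomal and mitochondrial sum at ZT0 (median 23.1%) and 22.2 to 24.4% at ZT4 (median 23.2%), then 26.3 to 29.4% at ZT8 (median 27.8%), 27.3 to 29.6% at ZT12 (median 28.6%), 27.9 to 29.4% at ZT16 (median 28.5%) and 26.5 to 29.2% at ZT20 (median 27.3%). Every young mouse at ZT0 and ZT4 lay below every young mouse at the other times. In nephritic mice the medians were 24.1, 22.4, 23.1, 25.1, 24.6 and 25.7% in the same order, and at ZT8 all 4 (22.2 to 24.5%) lay below all young mice of that time, RX10RU being one of them with 23.2%. The percent was also computed without Acaa1b, a setting chosen after seeing the data. The young medians then ran from 17.2% at ZT4 to 21.02% at ZT12. The young mice at ZT0 (17.4 to 20.01%) then overlapped those of each time from ZT8 on. The overlap came from the Set 1 mice CR6RU, CR6RL and CR6LL (20.01, 19.13 and 19.01%). Set 2 mice at ZT0 had 17.36, 17.63, 17.85 and 18.05%, below the lowest young mouse from ZT8 on (ZT20RU, 18.08%). The percent is not adjusted for set. Young mice of the later times had 18.7 to 19.7% at ZT8, 19.2 to 23.3% at ZT12, 19.8 to 21.2% at ZT16 and 18.1 to 21.99% at ZT20. The young mice at ZT4 (16.6 to 17.9%) still lay below all of these. At ZT8 the nephritic mice (16.2 to 18.5%, the highest being RX10RU) still lay below the young mice (18.7 to 19.7%). The medians over all mice were 19.1% in young and 18.3% in nephritic mice, beside 27.4% and 24.1% with Acaa1b.

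**Figure D4:**
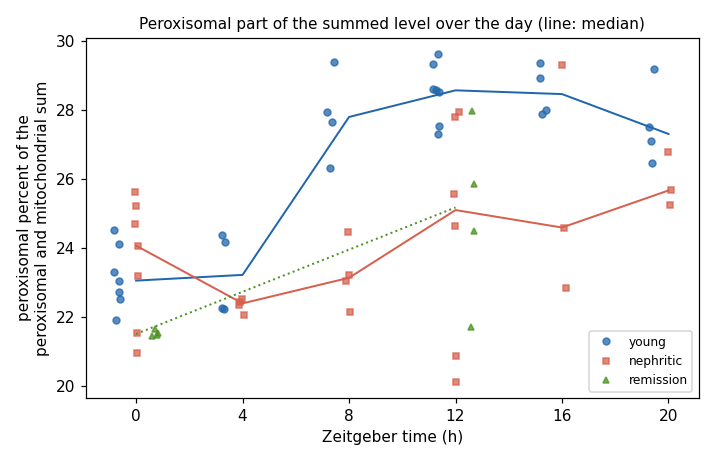
Each point is the peroxisomal percent of the summed peroxisomal and mitochondrial level of a mouse (vertical axis from 20 to 30%) against Zeitgeber time in hours, by group, with lines through the medians. Young mice step up between ZT4 and ZT8, and nephritic mice do not reach the young range at ZT8.

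Since 35 of the genes varied over the day in young mice, the sequence before the starts of the family was searched for 4 motifs. Shown are the stretches of Cpt1a and Cpt2, the entry pair, of Acaa1b, the gene with the largest amplitude, and of Acadm, the highest gene per kb (RefSeq, GRCm38.p6, 5′ to 3′). Capitals mark matches, on either strand, to the nuclear receptor element AGGTCA, the CAAT box CCAAT and the GC box GGGCGG.
Cpt1a, chr19:3323051-3323284, + strand: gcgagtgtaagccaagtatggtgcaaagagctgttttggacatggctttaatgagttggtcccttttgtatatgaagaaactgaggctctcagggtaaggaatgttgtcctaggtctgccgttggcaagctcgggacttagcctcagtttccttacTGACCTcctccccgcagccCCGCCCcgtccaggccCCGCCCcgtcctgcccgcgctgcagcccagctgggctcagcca
Cpt2, chr4:107923611-107923839, - strand: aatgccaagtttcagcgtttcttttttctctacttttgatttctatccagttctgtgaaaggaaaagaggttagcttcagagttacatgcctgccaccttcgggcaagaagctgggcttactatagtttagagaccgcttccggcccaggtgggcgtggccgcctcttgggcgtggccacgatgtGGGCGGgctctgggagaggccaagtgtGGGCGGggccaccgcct
Acadm, chr3:153944644-153944893, - strand: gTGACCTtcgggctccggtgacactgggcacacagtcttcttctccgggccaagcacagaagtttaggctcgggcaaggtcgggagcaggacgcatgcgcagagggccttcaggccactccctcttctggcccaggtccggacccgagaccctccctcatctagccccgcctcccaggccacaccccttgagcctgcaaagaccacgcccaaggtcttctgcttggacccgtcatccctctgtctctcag
Acaa1b, chr9:119157094-119157343, - strand: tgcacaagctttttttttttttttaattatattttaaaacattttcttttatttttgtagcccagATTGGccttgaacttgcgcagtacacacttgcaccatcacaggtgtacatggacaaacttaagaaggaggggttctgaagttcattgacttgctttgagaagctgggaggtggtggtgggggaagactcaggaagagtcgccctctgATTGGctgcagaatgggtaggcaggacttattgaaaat

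Cpt1a and Acadm each held 1 AGGTCA element, Cpt1a and Cpt2 each held 2 GC boxes, and Acaa1b held 2 CAAT boxes. The Cpt1a stretch lies inside the outer bounds of the gene but in no annotated exon. The clock E-box CACGTG was searched as well and was in none of these 4 stretches, and none of the 4 motifs contains another. Promoters of 53 of the 61 genes were found, and 250 bases before the start were searched in them and in 27025 promoters of all genes. The E-box was in 7.55% of the members and 5.93% of all promoters, AGGTCA in 20.8% and 14%, CCAAT in 49.1% and 34.2%, and GGGCGG in 64.2% and 32.7%. CCAAT was in 8 of 11 peroxisomal promoters (72.7%) and 8 of 25 mitochondrial promoters (32%). Among members that varied over the day in young mice, 6.25% held the E-box, and 9.52% of the others did. These are matches of letters and not binding sites.

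Remission mice were compared with the other groups at ZT0 and ZT12. Against nephritic mice, 16 of 60 genes were higher (17% of all 16841 genes tested) and 3 were lower (20.5% of all genes), with a median log2 change of 0.30. Without mouse s9 the counts were also 16 (15.6% of all genes) and 3 (19.1% of all genes). Of the mitochondrial cycle 6 of 11 genes were higher, and of the genes grouped with the peroxisomal cycle 3 of 11. Acadm was 1494, 1500, 1629 and 2255 CPM at ZT0 and 1009, 1068, 1439 and 1453 CPM at ZT12 in remission mice, against 232 to 1280 CPM (median 904) in the 13 nephritic mice of these times. The lowest remission mice overlapped the highest nephritic mice, and the log2 change was 0.98 (SE 0.28, adjusted p = 0.00592). Acot7 was 130, 134, 144 and 151 CPM at ZT0 and 89.9, 99.9, 117 and 133 CPM at ZT12, all above the 29.4 to 85.4 CPM of the nephritic mice (log2 change 1.00, SE 0.17, adjusted p = 2.95e-05). Acox2, at 110 to 203 CPM (median 161) against 11 to 147 CPM (median 53.6), rose by 1.22 (SE 0.35, adjusted p = 0.00642). Eci3, at 97.4 to 144 CPM against 10.7 to 105 CPM, rose by 0.91 (SE 0.31, adjusted p = 0.0203), the ranges overlapping at their edge, a call lost when the library series was bridged by repeat libraries. Cpt1c, Acsl4 and Acot9 were the genes that fell, Cpt1c by 0.73 (SE 0.20, adjusted p = 0.00405), from 4.11 to 10.7 CPM to 2.13 to 5.11 CPM. With the library series bridged by 4 repeat libraries Cpt1c kept its call, while Acsl4 (adjusted p = 0.247) and Acot9 (adjusted p = 0.156) lost theirs. Cpt1a did not pass (log2 change 0.16, adjusted p = 0.388), with 276 to 455 CPM in remission mice.

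**Figure D5:**
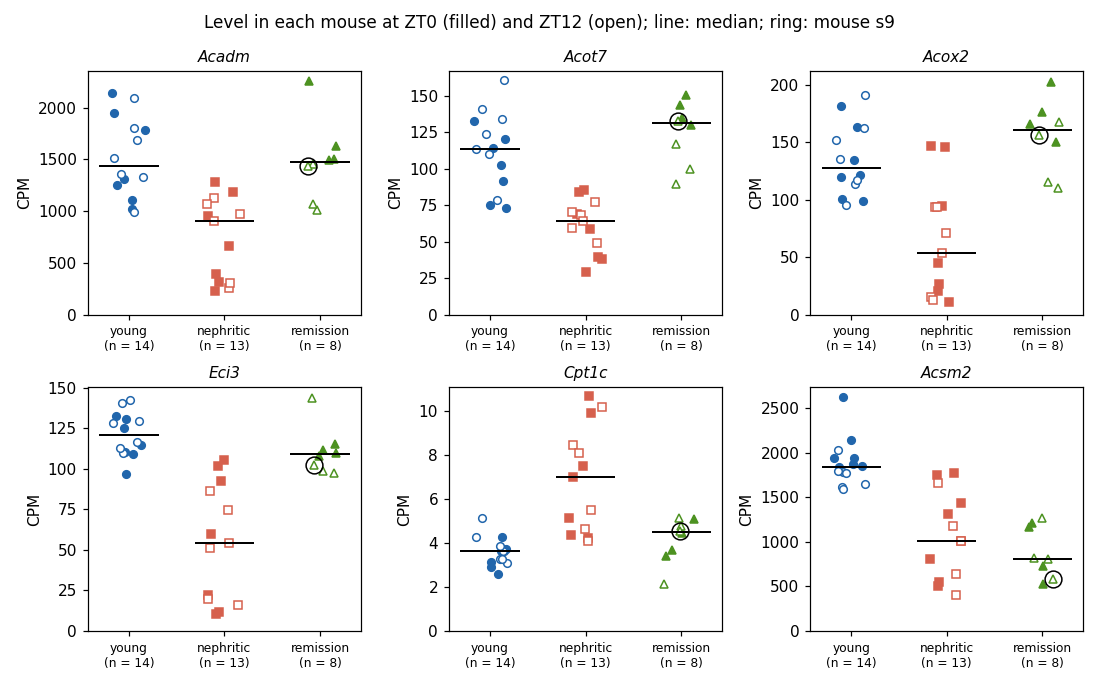
Each point is the level of a gene in a mouse in CPM at ZT0 (filled) or ZT12 (open), by group, with the median as a line and a ring around mouse s9. Acadm, Acot7, Acox2, Eci3 and Cpt1c in remission mice lie near the young range. The remission median of Cpt1c lies between the young and nephritic medians. Acsm2 in remission mice stays below every young mouse shown.

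Of the mice with adrenal markers, young mice ZT0RU, ZT12RL, ZT12LU and ZT120 and nephritic mouse RX10LU were collected at ZT0 or ZT12. Without them 8 genes were higher in remission than in nephritic mice (12.8% of all genes), a share of the 60 near that of all genes. Without RX10LU alone 13 were higher (15.3% of all genes). With the proximal tubule markers as a covariate, 17 genes were higher (18% of all genes) and 4 lower (19.2% of all genes). Injury markers differed along with these genes, all 4 being higher in nephritic than in young mice, with sums of 118 to 254 CPM in remission mice, 43.2 to 1725 CPM in nephritic mice and 34.0 to 143 CPM in young mice over all times, and their part in the result was not tested. Remission libraries carry a numbering series of their own, which they share with second libraries of 4 other mice, so that series and group can be separated only through these 4. In these repeats the genes at 10 CPM or more differed from the original library by a median of -0.02, -0.01 and -0.03 in 3 mice and -0.17 in RX11RU on the log2 scale.

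Against young mice, 15 genes were lower in remission (20.4% of all genes tested) and 2 higher, Acsl5 and Acsl6 (21.2% of all genes). Acsm2 had the largest fall among genes that passed, with 533 to 1273 CPM in remission mice and 1591 to 2626 CPM in young mice of these times, without overlap (log2 change -1.20, SE 0.23, adjusted p = 0.000127). The comparison was unstable. Without mouse s9 there were 8 lower genes (18.5% of all genes) and 3 higher (19.6% of all genes), and leaving out s12, s14, s3 or s8 in turn left 8 or 9 lower genes. With the library series bridged by 4 repeat libraries 1 gene, Acsm2, was lower (adjusted p = 0.0212), with 3 repeat libraries 0 were, and in neither fit was any gene higher, so that the calls of Acsl5 and Acsl6 were lost. With the proximal tubule covariate 5 were lower (17.6% of all genes) and 21 higher (19.7% of all genes).

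Between ZT0 and ZT12, 3 of 60 genes differed in young mice (3.66% of all genes tested), 0 in nephritic mice (3.52% of all genes) and 0 in remission mice (0.0475% of all genes) in the edgeR fit of all 3 groups. In young mice Eci2 was lower at ZT0 by a log2 difference of -0.48 (SE 0.12, adjusted p = 0.0156), Decr2 by -0.64 (SE 0.18, adjusted p = 0.0412), and Acsl5 was higher by 0.35 (SE 0.087, adjusted p = 0.0136). At an unadjusted p under 0.05 there were 11, 4 and 1 genes in young, nephritic and remission mice, and RLE size factors gave 3, 0 and 0. Without mouse s9 the counts were 3, 1 and 0. Of all 16819 genes tested in that fit, 83 differed in remission mice, against 8 of 16841 with s9 included. In remission mice Eci2 was 94.2, 96.7, 100.1 and 117 CPM at ZT0 and 92.8, 139, 146 and 170 CPM at ZT12, where the lowest value is mouse s9. The peroxisomal percent was 21.4 to 21.6% in the 4 remission mice at ZT0 and 21.7, 24.5, 25.9 and 27.98% at ZT12, and there too the lowest is mouse s9.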

How the data were processed

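Per the labels, kidney RNA was sequenced in 65 mice, and 4 of them a second time. The submitters' processing notes name HISAT and the mm10 build, and the study's methods name a Burrows-Wheeler method; the authors deposited unnormalized read counts as whole numbers for each gene symbol, without pooling. In R 4.3.3, genes whose counts summed to at least 100 in the fitted samples entered, scaled with TMM factors (edgeR 4.0.16). Groups were compared with edgeR's quasi-likelihood test and Benjamini-Hochberg adjustment over all genes tested, at an adjusted p of at most 0.05, with sequencing set (2 levels, from the study's sample table) and, where stated, time point as covariates. The main fits took remission libraries as Set 2, so a difference between library series would enter the remission contrasts. Amplitudes came from a 24 h cosine on log2 CPM with a prior count of 2. Levels are TMM-scaled CPM, per kb of the longest coding transcript where genes are compared. Repeat libraries entered alternatives only.

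The members and lists were chosen with earlier results of these data known. Named were Cpt1a, the core mitochondrial and peroxisomal enzymes, of the others the 5 largest rises and 5 largest falls, the 5 largest young amplitudes, members with a different time course, and the 5 largest changes in remission. Other genes were named after their values were seen. Alternatives were RLE size factors, limma 3.58.1, DESeq2 1.42.0, no filter, Set 2 alone, no set covariate, cosine terms, repeat libraries and leaving out each mouse. Scripts were tested on simulated data. Microarrays were not analysed here, and some genes are not reported here by name.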

Additional observations from a re-analysis of the deposited data

Results flagged for a closer look

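Cpt1a, the mitochondrial sum, the peroxisomal sum and the peroxisomal percent were each checked in every group and time point with 4 to 10 mice. Of these 48 checks, which share mice and of which chance would single out about 1 in 20, 2 held a mouse far from the others. Cpt1a was 400.7 CPM in young mouse ZT20LU, where the other 3 young mice of ZT20 had 292 to 305 CPM. The adrenal markers of that mouse summed to 808 CPM. The summed level of the mitochondrial genes was 3914 CPM per kb in remission mouse s10, where the other 3 remission mice of ZT12 had 2884 to 3057 CPM per kb.

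The time course differed between nephritic and young mice for Eci2 (adjusted p = 0.0392) and Acsm3 (adjusted p = 0.0486) by the group by time terms of the edgeR fit. Over 8 other settings the adjusted p ranged from 0.00786 to 0.228 for Eci2, which kept the call in 4, and from 0.0130 to 0.165 for Acsm3, which kept it in 2.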

How the results depend on the processing

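Across 2405 values of 37 named members under settings other than the proximal tubule covariate, 2388 kept direction and call, 13 lost the call (3 members), 4 gained it (2 members) and 0 changed direction. With that covariate, chosen after seeing the data, 10 members were lower and 2 higher, and the log2 change turned positive, without passing, for Cpt2 (0.10), Acadvl (0.0544), Acadl (0.12), Acadm (0.0745), Acaa2 (0.0245), Decr1 (0.0457), Eci1 (0.15), Acox2 (0.0204), Acox3 (0.0385), Ehhadh (0.26), Acot8 (0.00719), Ech1 (0.0648), Acsl1 (0.0901) and Acsm3 (0.0203). The cause was not tested.

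Leaving out each mouse in turn gave 48 to 50 lower and 5 to 5 higher members, 30 to 39 varying over the day in young and 1 to 3 in nephritic mice, 0 to 5 with a different time course, and 26 to 37, 4 to 13, 0 to 1, 44 to 50, 0 to 8 and 0 to 0 lower from ZT0 to ZT20. It gave 12 to 16 higher and 3 to 3 lower in remission than in nephritic mice, and 8 to 21 lower and 2 to 3 higher than in young mice. Members varying over the day in nephritic mice numbered 1 without a filter, with cosine terms or without the set covariate and 0 with the adipocyte covariate. Members with a different time course numbered 5 by DESeq2, 1 without a filter and 0 with cosine terms, in Set 2 alone or without the set covariate. Set 2 alone gave 19, 5, 20 and 19 lower members at ZT4, 8, 12 and 16, and RLE size factors 0 at ZT8 and 2 at ZT16. Higher in remission than in nephritic mice were 8 without the mice with adrenal markers, and lower were 1 and 1 with the library series bridged by 4 and 3 repeats. Lower in remission than in young mice were 8 without s9, 1 and 0 with the series bridged and 5 with the covariate, and higher were 0 and 0 with the series bridged and 21 with the covariate. Between ZT0 and ZT12, 1 member differed in nephritic mice without s9. With cycle genes only the mitochondrial median was -0.35, and the peroxisomal percent was 34.0% in young and 29.9% in nephritic mice, 32.8% and 30.7% with Ech1 and Eci2 counted as peroxisomal, and 19.1% and 18.3% without Acaa1b. Depth limits the members under 1 CPM.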
